A study of Mus musculus with 2 samples.

Results

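The 10 genes described here are the CXC chemokines that attract neutrophils (Cxcl1, Cxcl2 and Cxcl3), their receptor Cxcr2 and the granulocyte growth factor Csf3 (G-CSF), together with the CXC chemokines that attract T cells (Cxcl9, Cxcl10 and Cxcl16) and their receptors Cxcr3 and Cxcr6. They were taken by symbol, and all 10 were among the 31053 genes counted in both libraries. The cells came from the colon of bone marrow chimeras, CD45.1 recipient mice engrafted for 10 weeks with CD45.2 marrow. Donor marrow was IL-10R KO (below KO), without the IL-10 receptor, or IL-10R/CerS2 DKO (below DKO), also without ceramide synthase 2, an enzyme that makes very long chain ceramides, so that the donor cells of both groups lacked the IL-10 receptor and no group with an intact receptor was analysed here. Donor cells were sorted for CD11b, CD11c and CD64, a gate meant to keep out lymphocytes and neutrophils, and the study labelled the sorted cells colon macrophages. The ages and sexes of the mice and the number of mice behind each library were not given in the sources used here.

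Each group was 1 library, so genotype, mouse, sort and library cannot be told apart. No difference between KO and DKO could be tested, and every interval below is an exact 95% interval that covers counting error only. After filtering, 2443 KO and 730 DKO cells remained, with a median of 4715 and 3722 UMIs (counted molecules) per cell. Cers2, the gene of the additional knockout, had 552 UMIs in the KO library and 2 in the DKO library. Il10rb, the receptor chain deleted per the study's methods, still had 74 and 14 UMIs, and since a 3′ tag can lie outside the deleted part this checks neither label. Cells were put into classes by marker genes that included none of the 10 members. The monocyte/macrophage gate held 1525 KO and 337 DKO cells, which was 62.4% and 46.2% of the kept cells. Despite the sort, 167 and 47 cells passed the neutrophil gate, 256 and 97 the T cell gate, 219 and 164 the B cell gate and 46 and 24 the dendritic cell gate, and shares of cells by class can be set by the sort. Markers of more than 1 class were found in 304 KO cells (12.4%) and 86 DKO cells (11.8%), and only 1 barcode was shared between the libraries.

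Chemokines are small secreted proteins that guide leukocytes along a gradient. Cxcl1, Cxcl2 and Cxcl3 act through Cxcr2 on neutrophils and are classical products of macrophages and stromal cells that sense microbes, under the control of NF-kB. Cxcl9 and Cxcl10 are induced by interferons and act through Cxcr3 on activated T cells and natural killer cells, whereas Cxcl16 is made as a membrane-bound protein, can be shed by proteases, and acts through Cxcr6 on tissue-resident lymphocytes.

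The neutrophil-attracting ligands lie within a single cluster on chromosome 5, with Cxcl3 at 90786103 to 90789600, Cxcl1 at 90891241 to 90893115 and Cxcl2 at 90903871 to 90905938, all on the plus strand (GRCm38). Cxcl9 (92321347 to 92328079) and Cxcl10 (92346638 to 92348889) are on the minus strand of the same chromosome. The promoters of the 3 neutrophil ligands and of Cxcl10 are shown because the first 3 genes were highest in the same macrophages, as described below, and Cxcl10 was distributed otherwise. The sequences are the 250 bases before the start of each gene from RefSeq (GRCm38.p6), 5′ to 3′ on the gene's strand, at chr5:90890995-90891244 (Cxcl1, plus), chr5:90903649-90903898 (Cxcl2, plus), chr5:90785851-90786100 (Cxcl3, plus) and chr5:92348890-92349139 (Cxcl10, minus). For the 3 neutrophil ligands the RefSeq start differs from the gene position above. The difference is largest for Cxcl2, where the last bases shown lie past 90903871. Capitals mark GGGAATTTCCC, the longest run of bases that the 3 neutrophil-ligand promoters share, which has the form of an NF-kB site, and in Cxcl10 GGGAAATTCC, which is the same run without its first base read on the other strand.
Cxcl1: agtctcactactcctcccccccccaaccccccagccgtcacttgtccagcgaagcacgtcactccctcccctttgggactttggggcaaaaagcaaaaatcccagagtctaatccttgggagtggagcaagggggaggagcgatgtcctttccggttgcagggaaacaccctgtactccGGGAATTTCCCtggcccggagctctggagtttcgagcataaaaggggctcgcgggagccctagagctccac
Cxcl2: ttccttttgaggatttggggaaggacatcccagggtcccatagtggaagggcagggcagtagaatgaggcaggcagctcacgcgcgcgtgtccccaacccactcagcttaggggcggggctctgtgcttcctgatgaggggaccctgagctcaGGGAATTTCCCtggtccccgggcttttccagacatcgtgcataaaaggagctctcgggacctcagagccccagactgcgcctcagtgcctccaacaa
Cxcl3: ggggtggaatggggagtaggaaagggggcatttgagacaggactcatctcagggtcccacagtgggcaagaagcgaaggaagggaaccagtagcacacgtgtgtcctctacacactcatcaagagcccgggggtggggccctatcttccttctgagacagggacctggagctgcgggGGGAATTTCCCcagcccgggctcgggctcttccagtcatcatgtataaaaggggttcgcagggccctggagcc
Cxcl10: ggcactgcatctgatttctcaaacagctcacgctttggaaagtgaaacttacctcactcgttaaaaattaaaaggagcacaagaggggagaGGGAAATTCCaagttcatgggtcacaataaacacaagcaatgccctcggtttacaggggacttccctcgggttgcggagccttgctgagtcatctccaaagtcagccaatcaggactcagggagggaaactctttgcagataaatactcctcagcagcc
Both were searched on both strands of 32817 RefSeq promoters of this length, after the sequences had been seen. The run of 11 bases was in 14 of them (0.0427%), among them Cxcl1, Cxcl2 and Cxcl3. Its first base there was 71, 97 and 73 bases before the RefSeq start. The run of 10 bases was in 32 (0.0975%). It lay 159 bases before the start of Cxcl10 and, by construction, within the longer run on the minus strand of the 3 neutrophil ligands. The other members with a RefSeq promoter, of 8 in all, held neither. These are matches of letters, and no binding of a factor was measured here.

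Monocyte/macrophage-gated cells held most transcripts of the neutrophil-attracting ligands, with 95.5% of the KO and 94.5% of the DKO UMIs of Cxcl1, 84.5% and 77.1% of those of Cxcl2 and 87.5% and 68.4% of those of Cxcl3, and Cxcl2 had the most UMIs of the 3. Over all genes, the gate held 8740062 of the 12411247 KO UMIs and 1957996 of the 3401458 DKO UMIs of kept cells. The DKO share of Cxcl3 rests on 19 UMIs, with an interval from 43.4% to 87.4%. The KO shares depended on how the class was drawn. With a gate of 4 markers, that of Cxcl3 was 63.7% and that of Cxcl2 73.5%. With Seurat clusters, they were 98.0% and 87.2%. All 3 had lower levels in DKO than in KO monocyte/macrophage-gated cells, slightly so for Cxcl1, by less than 2-fold for Cxcl2 and by 66.9-fold for Cxcl3. KO cells of the Arg1/Nos2 class, defined below and with no DKO cell, were the richest in all 3. Without that class the levels of Cxcl1 and Cxcl2 were close in the libraries, while Cxcl3 stayed lower in DKO.

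Cxcl1, a ligand of Cxcr2, had 1341 UMIs in KO and 241 in DKO monocyte/macrophage-gated cells. This was a level of 153 (145 to 162) and 123 (108 to 140) counts per 1000000 UMIs of the class (CPM), a log2 ratio of DKO to KO of -0.32 (-0.52 to -0.12). Cxcl2, the ligand that macrophages release early after a microbial stimulus, had 23990 and 2855 UMIs, which was 2745 (2710 to 2780) and 1458 (1405 to 1513) CPM and a log2 ratio of -0.91 (-0.97 to -0.86). The intervals of the libraries did not overlap for either gene, and those of Cxcl2 were the further apart. Cxcl3, a close relative of both, had 4032 UMIs in KO and 13 in DKO. Its level was 461 (447 to 476) CPM in KO and 6.64 (3.54 to 11.4) CPM in DKO, so that the log2 ratio was -6.06 (-7.03 to -5.34), or 66.9-fold lower. Of the 19 Cxcl3 UMIs in all DKO cells, 9 were in 1 cell. Cxcl2 and Cxcl3 transcripts share 161 stretches of 31 bases, which is 7.59% and 4.56% of each, and Cxcl1 shared none with either. Where these stretches lie relative to the 3′ reads was not examined, and neither was their effect on the counts of Cxcl2 and Cxcl3.

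Csf3, the growth factor that drives neutrophil production in the marrow, was rare, with 44 KO and 9 DKO UMIs in these cells. Its levels of 5.03 and 4.60 CPM gave a log2 ratio of -0.07 with an interval from -1.35 to 0.92, so no difference was detectable at this depth. Every KO UMI of Csf3 and 81.8% of the DKO ones were in the monocyte/macrophage gate. Of the 8 members with at least 10 UMIs in these cells, 2 (Cxcl3 and Cxcl9) were at least 2-fold lower in DKO and 1 (Cxcr2, 17 and 12 UMIs) was at least 2-fold higher, against 4.73% and 5.88% of the 10834 genes with as many UMIs. Members near 2-fold changed sides with the processing: Cxcl9 was at -0.96 in Seurat clusters and -0.90 in cells that passed 1 gate only, TMM scaling put Cxcl2 at -1.01 and Cxcl10 at -1.03, and without the cell with most UMIs in each library Cxcr2 was at 0.81. The median log2 ratio of the 8 members was -0.61, beside 0.09 over all of these genes.

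**Figure D1:**
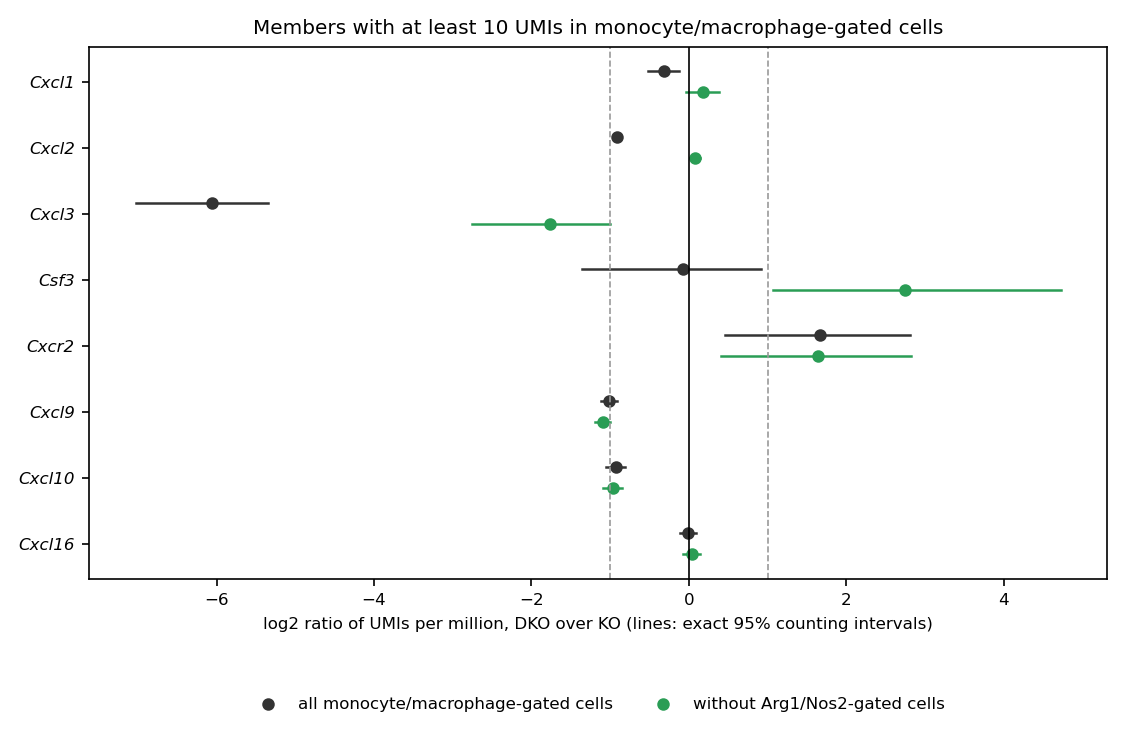
Log2 ratio of DKO to KO counts per 1000000 UMIs for each member in monocyte/macrophage-gated cells, with and without the cells of the Arg1/Nos2 class. Points are ratios, lines are exact 95% counting intervals, and dashed lines mark 2-fold. Cxcl2 moved from -0.91 to 0.08 without these cells, while Cxcl9 stayed near -1.0.

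The Arg1/Nos2 class, cells with UMIs of at least 2 of Arg1 (arginase), Nos2 (inducible nitric oxide synthase), Ptges and Slc7a2, was 169 of the 1525 KO cells in the monocyte/macrophage gate (11.1%, 9.55 to 12.8) and 0 of 337 in DKO, which allows a share of up to 0.890% by the limit of 3 counts, with an exact upper bound of 1.09%. Over the whole gate 2501 UMIs of Arg1 were counted in KO against 1 in DKO, and for Nos2 these were 1648 and 18. The class held 13.3% of the UMIs of the KO gate. Its markers were chosen with earlier results of these data known. They and Cxcl3 were among the leading genes of the same Seurat cluster, which had 179 KO and 2 DKO cells. The Cxcl3 level of the class and its absence in DKO are therefore descriptions and no independent result. Cxcl2 was at 11644 CPM in these cells, with 13545 UMIs, or 47.7% of all Cxcl2 UMIs of the KO library, and was found in 148 of 169 cells (87.6%, and 78.1% once each cell had been thinned to 1500 UMIs). Cxcl3 was at 3314 CPM and these cells held 83.7% of the library's Cxcl3 UMIs. Cxcl1 was at 441 CPM. Csf3 was found in 12 of these cells, which held 39 UMIs, or 88.6% of those of the library.

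Leaving the Arg1/Nos2 class out brought Cxcl1 to 109 CPM in KO against 123 in DKO (log2 ratio 0.17, -0.04 to 0.38) and Cxcl2 to 1379 against 1458 (0.08, 0.02 to 0.14). Both ligands were then slightly higher in DKO, with an interval of Cxcl1 that included 0, and leaving out the cell with most UMIs in each library as well turned both, to -0.15 for Cxcl1 and -0.017 for Cxcl2. Cxcl3 fell to 23.4 CPM in KO, from 177 UMIs, which was still above the 6.64 CPM of DKO (log2 ratio -1.76, -2.75 to -1.0). Csf3 had 5 KO and 9 DKO UMIs, with 7 of the latter in 1 cell, and its log2 ratio of 2.74 (1.07 to 4.73) rests on these few molecules. Among all genes in these cells, 3.68% were at least 2-fold lower and 5.39% at least 2-fold higher in DKO, and the median of the members was 0.06 beside 0.07 for all 10673 genes.

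Within the remaining cells of the gate, Cxcl1 and Cxcl2 had higher levels in the C1q class than in classical monocytes. The C1q class is cells with complement C1q transcripts that mark resident and mature macrophages. Cxcl2 was at 1904 CPM in KO and 2276 in DKO C1q cells, against 331 and 293 CPM in classical monocytes, the Ly6c2-expressing cells that enter from the blood. Cxcl1 followed the same order, at 164 and 189 CPM in C1q cells and 20.1 and 15.9 CPM in classical monocytes. It was found in only 12.6% of KO and 14.4% of DKO C1q cells, and 64 of the 203 DKO UMIs were in 1 cell. The distance between the classes was thus larger than that between the libraries for both genes. Cxcl3 was low in both C1q populations, at 33.4 and 10.3 CPM.

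**Figure D2:**
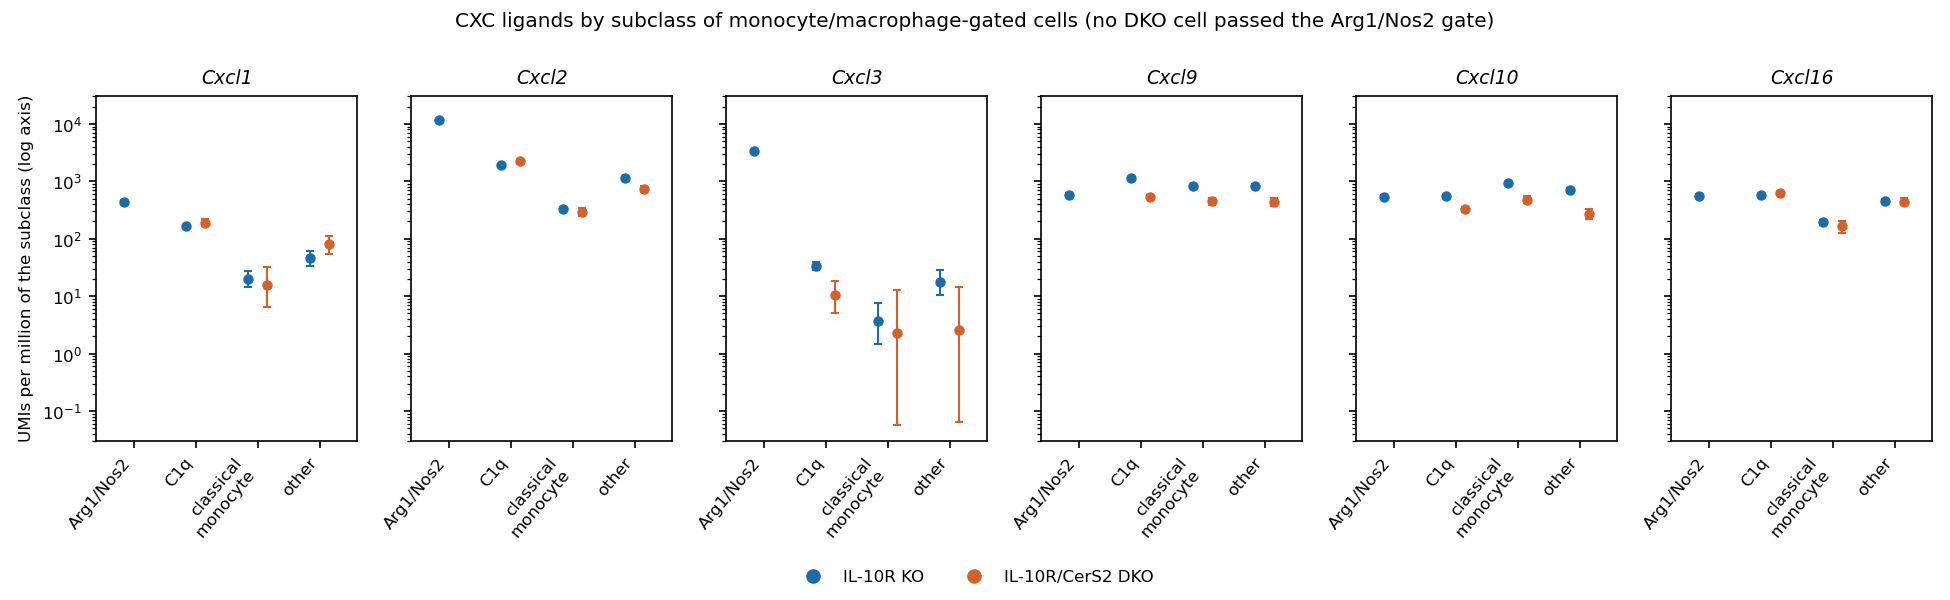
Counts per 1000000 UMIs of the 6 ligands in the subclasses of monocyte/macrophage-gated cells, with exact 95% counting intervals on a log axis and KO and DKO side by side. Cxcl2 and Cxcl3 were highest in KO Arg1/Nos2 cells (11644 and 3314), a class with no DKO cell, whereas Cxcl9 and Cxcl10 were lower in DKO than in KO C1q cells and classical monocytes.

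As a share of cells with at least 1 UMI, Cxcl2 was found in 47.4% of KO and 43.3% of DKO monocyte/macrophage-gated cells, or 35.0% and 34.4% after thinning, which left out 70 KO and 23 DKO cells with fewer UMIs. Cxcl1 was found in 9.97% and 10.1% (thinned, 6.53% and 7.32%) and Cxcl3 in 9.18% and 1.48% (thinned, 7.63% and 0.318%). Cxcl1 and Cxcl2 therefore differed between the libraries in UMIs per positive cell more than in the number of positive cells, and Cxcl3 in both. B cell-gated cells, which should lack these ligands, gave thinned shares of 0.488% and 0% for Cxcl1, 1.46% and 1.26% for Cxcl2 and 0.488% and 0% for Cxcl3 at a median depth of 2490 and 2516 UMIs per cell, where the macrophages had 5515 and 5462. For 0 of 159 thinned DKO B cells the exact interval reaches 2.29%, so the DKO share of Cxcl3 in macrophages was not above this background. Of the 388 Cxcl2 UMIs in KO B cell-gated cells, 374 were in 1 cell, and B cells that passed no other gate held 2 in KO and 1 in DKO.

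Neutrophils carried the receptor and were themselves rich in Cxcl2. In the neutrophil gate, Cxcl2 was at 8664 CPM in KO (2872 UMIs) and 4943 CPM in DKO (437 UMIs), a log2 ratio of -0.81, and it was found in 91.6% and 83.0% of the cells (thinned, 87.5% and 75.0%). Both levels were above those of the macrophages of the same library. Neutrophil-gated cells had a median of 1622 and 1627 UMIs, and they also held 6073 and 8347 CPM of the summed monocyte/macrophage markers, whose part in these levels was not tested. Cells that passed the neutrophil gate alone, 117 in KO and 31 in DKO, had 10784 and 5697 CPM of Cxcl2.

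Cxcr2, the receptor of the 3 ligands, marked the neutrophil gate in both libraries, although it had not been used to define it. It had 168 UMIs in 81 of 167 KO neutrophils and 61 UMIs in 28 of 47 DKO neutrophils, that is 82.0% and 80.3% of all Cxcr2 UMIs of each library. Its level was 507 (433 to 589) CPM in KO and 690 (528 to 886) CPM in DKO, with a log2 ratio of 0.45 whose interval reached from -0.00 to 0.88. Thinned to 1500 UMIs, 47 of the 104 KO cells and 14 of the 28 DKO cells deep enough had a UMI of it, with 63 and 19 cells left out. The intervals of the libraries overlapped. No B cell of either library, 219 and 164 cells, had a Cxcr2 UMI. In the monocyte/macrophage gate, Cxcr2 was found in 5 KO cells with 17 UMIs and 4 DKO cells with 12, and the dendritic cell gate had 16 UMIs in 2 KO cells and 1 UMI in DKO.

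**Figure D3:**
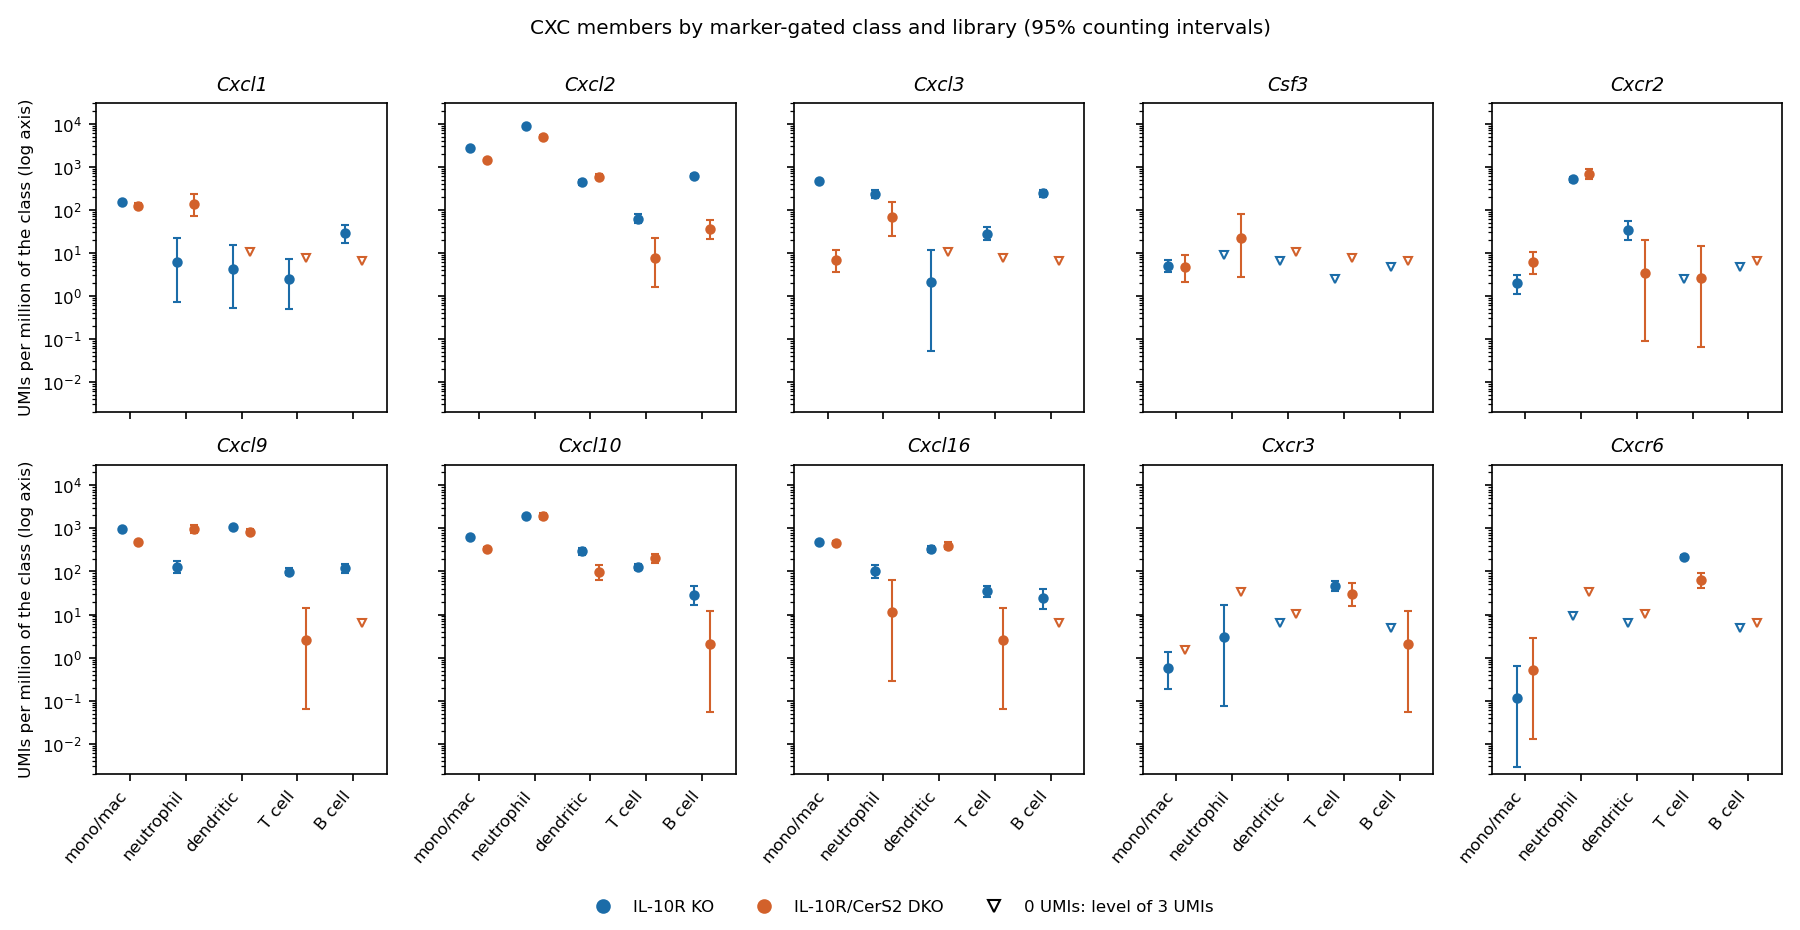
Counts per 1000000 UMIs of each member in the marker-gated classes of the KO and DKO libraries, with exact 95% counting intervals on a log axis and open triangles at the level of 3 UMIs where none was counted. Among the 5 classes drawn, Cxcr2 was highest in neutrophils (507 and 690), Cxcr3 and Cxcr6 in T cells, and Cxcl1 in monocyte/macrophage-gated cells except in DKO neutrophils, where 12 UMIs were in 1 cell.

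Among the T-cell-attracting ligands, Cxcl9 and Cxcl10 were each lower in DKO macrophages by about 2-fold. The difference was present in C1q cells, in classical monocytes and in the cells of none of the named subclasses. The nonclassical monocytes, 26 cells in KO and 14 in DKO, were not compared. Cxcl16 was at nearly the same level in the libraries. Leaving out the Arg1/Nos2 class left all 3 ratios close to these.

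Cxcl9, which is induced by interferon-gamma, had 8374 UMIs in KO and 931 in DKO monocyte/macrophage-gated cells, that is 958 and 475 CPM and a log2 ratio of -1.01 (-1.11 to -0.91), just past 2-fold. Cxcl10, which responds to both type I and type II interferons, had 5660 and 665 UMIs, or 648 and 340 CPM, with a log2 ratio of -0.93 (-1.05 to -0.81). Without the Arg1/Nos2 class, which held 7.09% of the Cxcl9 and 8.75% of the Cxcl10 UMIs of the KO library, the ratios were -1.09 (-1.19 to -1.0) and -0.97 (-1.09 to -0.85). In C1q cells Cxcl9 was at 1154 CPM in KO and 527 in DKO (-1.13), and in classical monocytes at 822 and 446 (-0.88). For Cxcl10 these levels were 544 and 323 CPM in C1q cells (-0.75) and 946 and 482 CPM in classical monocytes (-0.97), so that Cxcl9 was higher in C1q cells and Cxcl10 in classical monocytes. The monocyte/macrophage-gated cells of none of the named subclasses gave ratios of -0.93 for Cxcl9 and -1.36 for Cxcl10. Fewer DKO cells also had a UMI of either gene. Cxcl9 was found in 50% of KO and 28.8% of DKO cells (thinned, 35.8% and 19.4%) and Cxcl10 in 40.3% and 25.8% (thinned, 28.7% and 15.9%), against thinned shares of 1.46% and 0% for each in B cells.

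Cxcl16, the ligand of Cxcr6, had 4120 KO and 919 DKO UMIs, at 471 and 469 CPM with a log2 ratio of -0.01 (-0.11 to 0.10). It was the most widely detected ligand, in 69.7% of KO and 59.6% of DKO monocyte/macrophage-gated cells (thinned, 40.8% and 36.9%, against 0.976% and 0% in B cells). Among subclasses its level was 580 and 624 CPM in C1q cells, 194 and 164 CPM in classical monocytes and, in KO, 561 CPM in Arg1/Nos2 cells. Transcripts of Zmynd15 lie on the other strand of the Cxcl16 locus, as those of Art3 do at Cxcl10.

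Dendritic cells were a further source of these ligands, but in CPM only Cxcl9 was above the monocyte/macrophage level of the same library. Cxcl9 was at 1058 CPM in KO and 834 in DKO dendritic cell-gated cells (log2 ratio -0.34). Its 240 DKO UMIs there were in 9 of the 24 cells. The DKO dendritic cell gate held 18.7% of that library's Cxcl9 UMIs, and 1 of its cells alone held 7.94%. The DKO level of Cxcl9 and its ratio thus rest in large part on that cell. Cxcl10 was at 291 and 97.3 CPM (-1.56) and Cxcl16 at 334 and 396 CPM, with a Cxcl16 UMI in all 24 DKO cells. The summed monocyte/macrophage markers were 1638 CPM in KO and 6803 CPM in DKO dendritic cells, and their part in these levels was not tested. In neutrophils, Cxcl10 was at 1937 CPM in KO and 1968 in DKO (0.03, -0.23 to 0.27), while it was found in 41.3% of KO and 21.3% of DKO cells (thinned, 45% and 17.9%). Similar levels thus came from a smaller share of the cells in DKO. Monocyte/macrophage-gated cells nevertheless held most of the molecules, with 87.3% and 72.5% of the library's Cxcl9 UMIs, 80.1% and 66.4% of Cxcl10 and 90.6% and 86.8% of Cxcl16. These shares are to be read beside the gate's part of all UMIs, 8740062 of 12411247 in KO and 1957996 of 3401458 in DKO.

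T cells with Cxcr6 were a smaller share of the T cell gate in DKO than in KO, and for Cxcr3 the counts did not resolve a difference. Cxcr6, found on effector and tissue-resident T cells, had 269 UMIs in 100 of 256 KO T cell-gated cells and 25 UMIs in 14 of 97 DKO cells. Its level was 215 (191 to 243) CPM in KO and 63.5 (41.1 to 93.8) CPM in DKO, and its log2 ratio was -1.74 (-2.42 to -1.17), where 12.6% of all genes tested in these cells were at least 2-fold lower in DKO and 5.7% at least 2-fold higher. The share of cells was 39.1% and 14.4%, or 24.1% and 5.15% after thinning, where 3 KO cells and no DKO cell were left out. With T cells taken from Seurat clusters in place of the gate, the thinned shares were 31% and 14.3%, which brings the libraries closer. Cxcr6 was itself among the leading genes of the T cell cluster (147 KO and 46 DKO cells). These shares are therefore no independent check of the gate. Monocyte/macrophage-gated KO cells, which should lack the receptor, had a Cxcr6 share of 0.0656%. In T cells that passed no other gate, 140 in KO and 59 in DKO, Cxcr6 was at 280 and 72.0 CPM. The summed monocyte/macrophage markers were 316 CPM in KO and 66.1 CPM in DKO over the whole T cell gate, and 41.8 and 62.4 CPM in the cells that passed no other gate.

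Cxcr3, the receptor of Cxcl9 and Cxcl10 on activated T cells, was found in 41 KO cells of the T cell gate with 58 UMIs and in 8 DKO cells with 12. The levels of 46.5 (35.3 to 60.1) and 30.5 (15.8 to 53.3) CPM overlapped, and the log2 ratio was -0.56 (-1.64 to 0.31). Shares of cells were 16.0% and 8.25% (thinned, 9.88% and 4.12%), against 0.328% of KO monocyte/macrophage-gated cells. In the T cells that passed no other gate, the levels were 50.5 and 52.8 CPM. The T cell gate held 81.7% and 70.6% of the Cxcr3 UMIs and 92.1% and 69.4% of the Cxcr6 UMIs of each library, and innate lymphocyte-gated cells, 21 in KO and 9 in DKO, held 10 and 6 Cxcr6 UMIs.

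Genes other than the receptors were also profiled in the T cell gate. In KO T cell-gated cells, Cxcr6-positive cells had more often a UMI of Cd4 (thinned, 20.2% against 8.44% of Cxcr6-negative cells), of the CD8 chain gene Cd8b1 (11.1% against 1.95%), of Ifng, the interferon-gamma gene (15.2% against 7.14%), and of Il18r1, a receptor subunit for IL-18 (29.3% against 18.8%). They had less often one of Ccr7, the receptor that takes naive T cells to lymph nodes (2.02% against 13.6%). The Cxcr6-positive cells had a median of 3969 UMIs, and the Cxcr6-negative cells 3734. The intervals of the thinned shares were apart for Cd8b1 and Ccr7 and overlapped for Cd4, Ifng and Il18r1. These genes were picked after their values were seen from 15 that were profiled, and Cd8a was closer, at 17.2% against 13%. Cd4, Cd8a and Cd8b1 were themselves markers of the T cell gate. The same genes were split by Cxcr3, with 41 positive and 212 negative KO cells after thinning. Ifng was then found in 0% against 12.3%, Cd4 in 9.76% against 13.7% and Cd8b1 in 2.44% against 6.13%. Il18r1 was found in 26.8% against 22.2% and Ccr7 in 9.76% against 8.96%. The intervals overlapped for each of these genes. Only 14 DKO cells had Cxcr6, with Il18r1 in 7.14% of them and 6.02% of the 83 others, and Cd4 in 28.6% and 3.61%. Over all T cell-gated cells, the thinned share with Ccr7 was 9.09% in KO and 18.6% in DKO, and that with Ifng was 10.3% and 4.12%. The intervals of the libraries overlapped for both shares. Ifng had 150 UMIs in KO and 9 in DKO T cells, at 120 and 22.9 CPM (log2 ratio -2.32). These UMIs were in 48 KO and 7 DKO cells. Of all genes tested in T cell-gated cells, 12.6% were at least 2-fold lower in DKO.

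Genes of the same pathways in monocyte/macrophage-gated cells are read against the 4.73% of all genes at least 2-fold lower and the 5.88% at least 2-fold higher there. Of 6 genes of the interferon-gamma axis none reached 2-fold. Neither of the shedding proteases Adam10 and Adam17, which release Cxcl16 from the membrane, reached 2-fold (-0.07 and 0.10). Of 8 genes that induce the neutrophil ligands or degrade their transcripts, 1 was lower by at least 2-fold. This was Il1a, an alarm cytokine, at 169 and 41.9 CPM (-2.01), and without the Arg1/Nos2 class its log2 ratio was -0.11. Il1b was at 3291 and 2362 CPM (-0.48), and Tnf, Nfkbiz, Nfkbia, Tnfaip3, Zfp36 and Zc3h12a were between -0.16 and 0.05. Of 3 granulocyte growth genes, Csf1 (53 and 5 UMIs, -1.12) was lower, with an interval from -2.93 to 0.06, while the G-CSF receptor Csf3r was at 0.02. Among the other CXC ligands only Pf4 and Cxcl14 had enough UMIs. Pf4, which resident macrophages and platelets express, was at 99.4 CPM in KO and 198 in DKO (1.0, just under 2-fold), and Cxcl14 had 78 and 4 UMIs (-1.97). Of the other CXC receptors only Cxcr4 had enough UMIs (log2 ratio -0.14). Cxcl11, a further ligand of Cxcr3, was not analysed here.

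The chemokine transcripts were concentrated in few cells, and in KO the neutrophil-attracting ligands more so than the T-cell-attracting ones, while in DKO Cxcl10 came before Cxcl2. In the KO library, 50% of all Cxcl1 UMIs were in 19 of 2443 cells, those of Cxcl3 in 20 and those of Cxcl2 in 54. The corresponding numbers were 86 cells for Cxcl10, 100 for Cxcl9 and 261 for Cxcl16. The median among the 1749 KO genes with at least 1000 UMIs was 282 cells, so only Cxcl16 was near it. In DKO, 50% of the UMIs were in 4 of 730 cells for Cxcl1, 15 for Cxcl2, 10 for Cxcl10, 16 for Cxcl9 and 51 for Cxcl16, and the median over the 469 DKO genes with at least 1000 UMIs was 109. Cxcl1, with 255 UMIs in DKO, is below that minimum and cannot be set against the median. The richest cells held 838 Cxcl2 UMIs in KO and 283 in DKO, and 1 DKO cell held 64 Cxcl1 UMIs, which was 25.1% of that library's total. Csf3 had 50% of its UMIs in 3 KO cells and 1 DKO cell, but its totals of 44 and 11 UMIs by themselves limit that number.

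**Figure D4:**
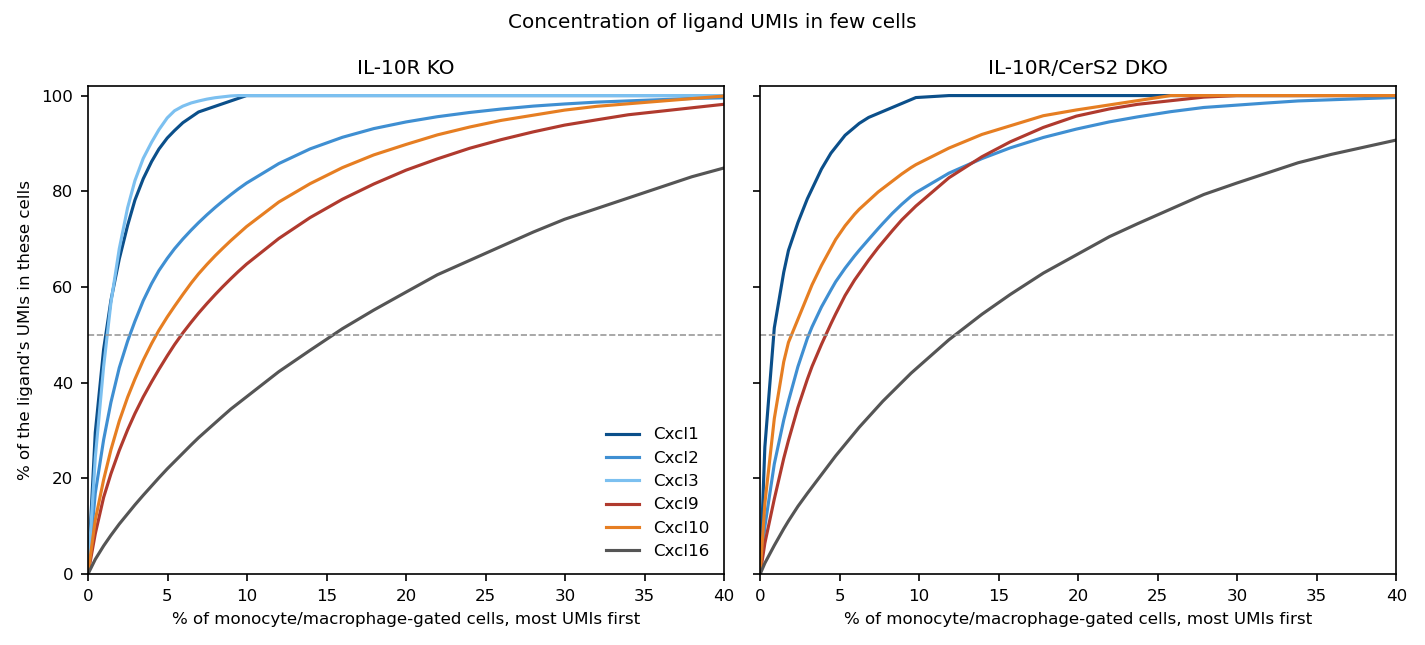
Cumulative percent of the UMIs of each ligand against the percent of monocyte/macrophage-gated cells, ranked from the cell with most UMIs down, in the KO and the DKO library (Cxcl3 is not drawn for DKO, where these cells held 13 UMIs). The dashed line at 50% is reached within 1.11% of KO cells by Cxcl1, 2.69% by Cxcl2, 5.90% by Cxcl9 and 15.5% by Cxcl16.

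The richest cells were mainly Arg1/Nos2 or C1q cells for most ligands, in proportions that varied between ligands. In KO, 18 of the 20 cells that held 50% of the Cxcl3 UMIs were Arg1/Nos2 cells, as were 34 of 54 for Cxcl2 and 9 of 19 for Cxcl1, where the other 10 were C1q cells. For Cxcl9, 60 of 100 were C1q cells, 13 classical monocytes, 8 Arg1/Nos2 cells and 7 dendritic cells. Cxcl10 was the most evenly divided, with 26 C1q cells, 25 classical monocytes, 7 neutrophils and 6 Arg1/Nos2 cells among 86. For Cxcl16, 162 of 261 were C1q cells and 41 Arg1/Nos2 cells. In DKO the C1q class supplied all 4 cells for Cxcl1, 11 of 15 for Cxcl2 and 37 of 51 for Cxcl16. For the receptors in KO, 20 of 25 cells were neutrophils for Cxcr2, 16 of 19 were T cells for Cxcr3 and 24 of 25 were T cells for Cxcr6.

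**Figure D5:**
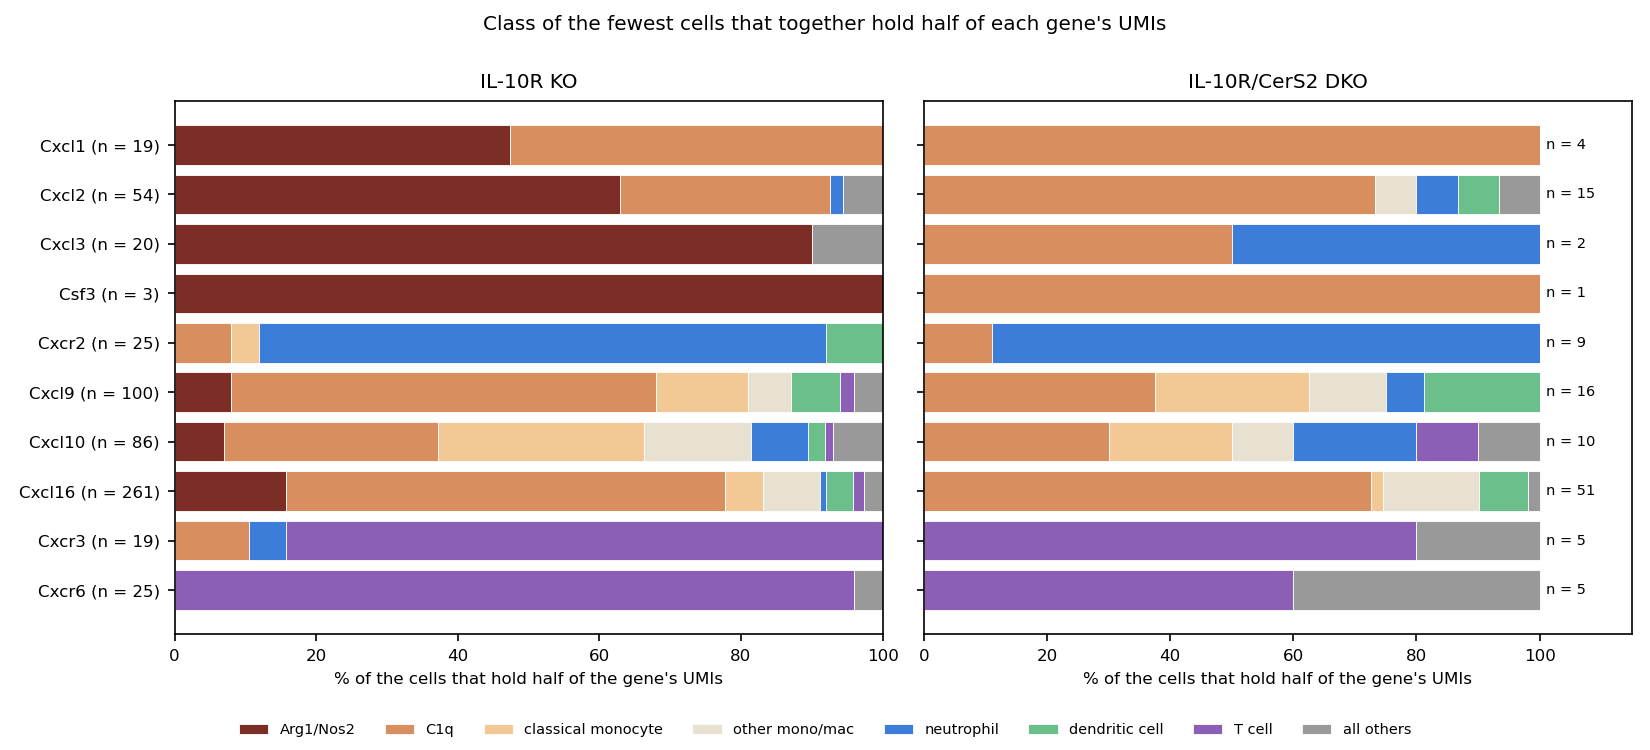
Percent, by class, of the fewest cells that together hold 50% of the UMIs of each member in the KO and the DKO library, with the number of those cells (n) beside each bar. In KO, Arg1/Nos2 cells make up most of the bars of Cxcl2 and Cxcl3 (34 of 54 and 18 of 20), and C1q cells those of Cxcl9 and Cxcl16.

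The cells richest in one ligand were in part the richest in others. Of the 19 KO cells richest in Cxcl1, 15 were also among the 54 richest in Cxcl2 (78.9% and 27.8% of each set), and 11 of the 20 cells for Cxcl3 were (55% and 20.4%). The sets of Cxcl9 and Cxcl10 shared 32 cells (32.0% and 37.2%). Across the kinds, the sets of Cxcl2 shared 4 cells with Cxcl9 (7.41% and 4%), 8 with Cxcl10 (14.8% and 9.30%) and 19 with Cxcl16 (35.2% and 7.28%). The KO sets of these ligands were of deep cells, with medians from 5782 (Cxcl10) to 8234 UMIs (Cxcl1), against 4715 over all kept KO cells. The part of depth in the overlaps was not tested. In DKO all 4 cells for Cxcl1 were among the 15 for Cxcl2, which shared 0 with the 2 cells of Cxcl3, 0 with Cxcl9, 1 with Cxcl10 and 3 with Cxcl16, and Cxcl9 and Cxcl10 shared 4. In thinned KO monocyte/macrophage-gated cells, Cxcl2 was found in 92.6% of the 95 cells with Cxcl1 and 31% of the 1360 without, and Cxcl10 in 44.3% of the 521 cells with Cxcl9 and 19.9% of the 934 without. Pairs across the kinds went both ways. Cxcl2 was found in 30.5% of the KO cells with Cxcl9 and 37.5% of those without, but in 42.7% of the cells with Cxcl10 and 31.9% of those without. Cxcl16 was found in 36.2% of the KO cells with Cxcl10 and 42.6% of those without. In DKO, Cxcl2 was found in 95.7% of the 23 cells with Cxcl1 and 29.6% of the 291 without, in 44.3% of the cells with Cxcl9 and 32.0% of those without, and in 66.0% of the cells with Cxcl10 and 28.4% of those without. Cells of a library share their source, and these shares are descriptions of the libraries.

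Across the 11 class sums of at least 20 cells, taken per library and so sharing 2 libraries and their depths, the genes whose log2 levels were most like those of each member are given as Pearson correlations over 9548 genes. Cxcl2 was most like the inflammasome gene Nlrp3 (0.97), Tnfaip2 (0.96) and the endotoxin co-receptor Cd14 (0.96), a gate marker. Cxcl1 was most like Myo7a (0.96), Npl (0.93) and Tnfrsf21 (0.93), and Cxcl3 like Il1a (0.90), Nos2 (0.86) and Bnip3 (0.86), of which Nos2 defined a class. Csf3 was most like Wipi1 (0.94), a value that rests on its 44 KO and 11 DKO UMIs. The values given for each member are the highest of 9548 over only 11 sums. How high such values run without any likeness was not examined. The interferon-induced genes Gbp2 and Isg15 led for Cxcl10 (both 0.96), 1810043G02Rik and Itpripl2 for Cxcl9 (both 0.92), and F11r and Tcp11l1 for Cxcl16 (both 0.97). Among the receptors, Cxcr2 was most like the neutrophil gate marker G0s2 (0.99), Cxcr3 like the T cell genes Tesc, Zap70 and Cd3e (all 0.99), the last a gate marker, and Cxcr6 like Tcrg-C2 and Ifng (both 0.99).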

How the data were processed

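The 2 libraries, 1 per genotype, measured transcripts by their 3′ ends in sorted single cells. The authors deposited unnormalized UMI counts, made with Cell Ranger 6.0.1 against mm10. The submitters' processing notes also name Seurat 4.3.0. Cells with 300 to 5000 genes were kept where mitochondrial UMIs did not exceed 10%, and doublets were left in (Scrublet called 6 KO and 2 DKO kept cells). A cell entered a class with UMIs of at least 3 of its markers, and the largest share of markers decided between classes. Macrophage subclasses needed 2 markers, in the order Arg1/Nos2, C1q, classical, nonclassical. The scoring was set after the markers, and the members, lists, gates and motifs were chosen with earlier results of these data known. UMIs were summed per class and given as counts per 1000000, with exact Poisson 95% intervals. Shares have Clopper-Pearson intervals. There were 12549471 KO and 3414944 DKO UMIs in all. Log2 ratios used an added 0.5 UMI and exact conditional intervals. Genes with 10 or more UMIs in all were compared, and a 2-fold ratio counted as a call, with no test. Likeness was Pearson's r of log2(CPM + 10) over classes of at least 20 cells. For shares at equal depth, cells were thinned to 1500 UMIs. The named genes were the 10 members, the genes of each pathway list with most UMIs or past 2-fold, and the 3 genes most like each member, of which the text gives 1 to 3. Scripts used Python 3.11.15, scanpy 1.11.5, scipy 1.17.1, numpy 2.4.6, R 4.3.3, Seurat 5.3.0 and edgeR 4.0.16, and were tested on simulated data. The values of 1 gene of the pathway lists are not reported here.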

Additional observations from a re-analysis of the deposited data

Results flagged for a closer look

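In several members the log2 ratio of DKO to KO had the opposite sign in another class from that in monocyte/macrophage-gated cells. These differences were not tested, since each group was 1 library. Cxcl1 was at 4.23 in neutrophils against -0.32 in macrophages, with all 12 DKO neutrophil UMIs in 1 cell and 2 UMIs in KO. For Cxcl9 in neutrophils the ratio was 2.91 against -1.01, with 43 UMIs in KO and 87 in DKO, of which 54 were in 1 of 4 positive cells. Cxcl2 was at 0.46 in dendritic cells against -0.91, with 96 of the 170 DKO UMIs in 1 cell, and dendritic cells that passed no other gate held 4 Cxcl2 UMIs in KO and 7 in DKO. Cxcl10 in T cells was at 0.69 against -0.93, with 46 of the 80 DKO UMIs in 1 cell and 83 of the 158 KO UMIs in 1 cell. Cxcr2 in dendritic cells was at -2.74 against 1.67, from 16 KO UMIs in 2 cells and 1 DKO UMI.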

How the results depend on the processing

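No paired analysis was possible because each group had 1 library. No called log2 ratio in monocyte/macrophage-gated cells changed sign under an alternative, although Cxcl1, Cxcl2, Csf3 and Cxcl16, all within 2-fold at first, did. Values that moved by more than their counting error are given here. Without Arg1/Nos2 cells, Cxcl1 was at 0.17, Cxcl2 at 0.081, Cxcl3 at -1.76 and Csf3 at 2.74. Without the cell with most UMIs in each library, Cxcl1 was at -0.67, Cxcl2 at -1.01, Cxcl3 at -7.57, Csf3 at -1.45 and Cxcl10 at -1.13. With both left out, Cxcl2 was at -0.017, Cxcl3 at -2.96, Csf3 at 1.47, Cxcl9 at -1.16 and Cxcl10 at -1.17, and in cells that passed 1 gate only Cxcl2 was at -0.83 and Cxcl9 at -0.90, which is within 2-fold. These last alternatives were chosen after seeing the data. Cxcl2 was at -0.72 with a gate of 4 markers, and Seurat clusters gave -0.84 for Cxcl2 and -0.76 for Cxcl10. TMM scaling shifted all ratios by -0.10 and put Cxcl2 at -1.01, with 612 genes lower and 484 higher where 512 and 637 were before. With no filter on low counts, 914 genes were lower and 1847 higher. Removing Scrublet doublets, no cell filter, UMIs per cell and 1 added count moved none of the 8 ratios beyond counting error, and the cause of the moves was not tested. The percent of a gene's UMIs in a class moved in 9 of 12 values with a gate of 4 markers and in 6 of 12 with Seurat clusters. Thinning to 1000 UMIs moved 9 of 18 shares of cells. Depth limits Csf3, Cxcr2 outside neutrophils, Cxcr3 and DKO Cxcl3, which rest on few UMIs.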
